A study of Mus musculus with 22 samples.

Results

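The 10 glutamate receptor genes described here are those named for astrocytes in 4 receptor classes: the metabotropic receptors Grm3 and Grm5, the AMPA receptor subunits Gria1, Gria2, Gria3 and Gria4, the NMDA receptor subunits Grin2c and Grin3a, and the kainate receptor subunits Grik2 and Grik5. They were chosen by name, but with earlier results of these data known, and all 10 were found among the 23453 gene symbols of the count table. All 10 had a read in some cell, and 8 had a read in at least 5 of the 22 cells; Grm3 and Gria4 did not. The cells were single astrocytes from primary cortical cultures of C57BL/6 mouse pups of postnatal day 0 to 1. By the paper, the cultures had been shaken and given cytosine arabinoside before replating, to clear other cells such as microglia. The cells were kept without serum for 24 h, exposed acutely to ethanol (EtOH) during calcium imaging and then collected one by one. By the shape of the calcium signal, 5 cells were M-type (mixed), 6 T-type (transient) and 6 S-type (sustained), and 5 did not respond (NR). All 4 types saw EtOH, so NR cells are exposed cells that did not respond and no unexposed group was analysed here.

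Glutamate receptors fall into ionotropic receptors, which are ion channels built from 4 subunits, and metabotropic receptors, which signal through G proteins. In astrocytes, GRM5 couples through Gq and phospholipase C to release of calcium from internal stores, and GRM3 couples through Gi and is the main metabotropic receptor of the mature astrocyte. AMPA receptors that lack an edited GRIA2 subunit let calcium pass, NMDA receptors need the subunit GRIN1, and GRIK5 forms a channel only together with GRIK1, GRIK2 or GRIK3.

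The data were reads of amplified RNA, 1 library for each cell, with 2937786 to 22131076 reads per cell. A level below is a normalized count, the count of a cell divided by its size factor, and the level of a type is the mean over its cells. A cell had between 6319 and 13070 genes with a read, and the 2 lowest totals and the 3 lowest gene numbers were T-type. The 12 astrocyte markers all had reads in each of the 4 types, and their summed level was at least 13592.9 in every cell. Sox10 and Gpr17 (oligodendrocyte lineage), Slc17a7 (excitatory neurons), Cldn5 (endothelium) and Rgs5 (pericytes) had no read in any cell, but other genes of these marker lists were widely read: Olig1 in 22 cells (mean level 8920.9), Olig2 in 21, Stmn2 in 20 (3057.1) and Col1a2 in 19 (829.9). The summed oligodendrocyte lineage markers reached 53350.6 (J163_18), the neuron markers 31630.4 (J151_5) and the endothelium and mural markers 9650.7 (J166_25). Nearly all of each sum was 1 gene: Olig1 with 51305.1, Stmn2 with 31627.1 and Col1a2 with 9466.3. Microglia markers summed to at most 85.9 in S-type and 41.9 in M-type cells, but reached 2404.4 in T-type (J162_16) and 1409.7 in NR (J186_5). In J162_16 nearly all of the sum was Laptm5 (2382.7). J163_18 and J162_16 had the lowest size factors, 0.183 and 0.276, which raise their normalized counts. No source names the animal or culture of a cell, so each type counts as 1 sample: differences between types are given with their counting error and with the range found when 1 cell is left out, and no test between types was possible.

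The site of the AMPA subunits that bears on calcium passage is the glutamine (Q) codon of the channel pore. It is shown here because Gria2 and Gria3 carry the results below. In the genome each of the 4 genes encodes glutamine there, and in Gria2 mRNA the enzyme ADARB1 edits the codon so that it is read as arginine. The stretches below are exonic and coding, from GENCODE vM21 on GRCm38, 5′ to 3′ on the strand of the gene, with the Q codon in capitals. They lie at chr11:57243082-57243111 (plus strand, exon 11 of 16) for Gria1, chr3:80706896-80706925 (minus strand, exon 11 of 16) for Gria2, chrX:41610253-41610282 (plus strand, exon 11 of 16) for Gria3 and chr9:4464122-4464151 (minus strand, exon 12 of 17) for Gria4.
Gria1: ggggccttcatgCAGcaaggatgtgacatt
Gria2: ggtgcctttatgCAGcaaggatgcgatatt
Gria3: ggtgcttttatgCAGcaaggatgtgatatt
Gria4: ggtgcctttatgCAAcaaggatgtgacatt
Counts per gene hold no bases, so whether the Gria2 codon was edited in these cells was not measured here.

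Reads of the receptor genes were unevenly spread over the cells, and AMPA subunits held most of them. Gria3 had a read in 22 of 22 cells (exact 95% binomial interval 84.6% to 100%), Gria2 and Grik5 in 19 each (65.1% to 97.1%), and Grin3a in 16 (49.8% to 89.3%). Grik2 had a read in 11 cells, Gria1 in 7, Grm5 in 6, Grin2c in 5, Gria4 in 4 and Grm3 in 1. Of the 16 other glutamate receptor genes, 14 had a read, Grid1 in the most cells (12), and Grm4 and Grm6 had none. Per kilobase of exon, the mean level over the 22 cells was 302.3 for Gria2 and 264.6 for Gria3, against 31.9 for Grin3a, 22.3 for Grin2c, 15.2 for Gria1, 5.90 for Grik5, 3.35 for Grm5, 2.14 for Grik2, 0.314 for Gria4 and 0.052 for Grm3. By the median over cells the first 2 changed places, with 206.6 for Gria3 and 144.9 for Gria2, since single cells with very high Gria2 raise its mean.

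**Figure D1:**
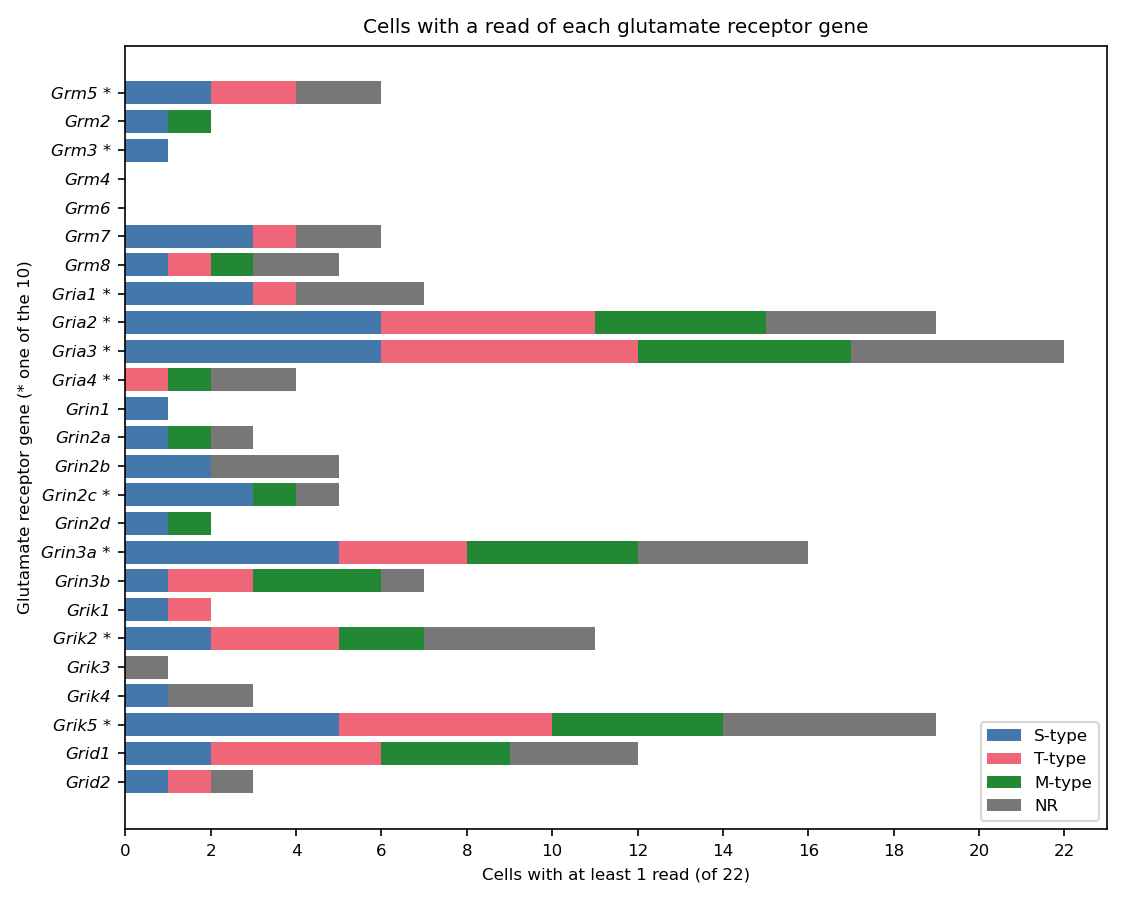
Number of cells with at least 1 read (horizontal axis, of 22) for 25 glutamate receptor genes (vertical axis, the 10 genes described here marked with an asterisk), coloured by response type. Gria3 reached 22 cells and Gria2 and Grik5 reached 19, while Grm4 and Grm6 had no read.

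The share of gene and cell pairs with a read was highest in NR with 60.0% (30 of 50), followed by S-type with 55.0% (33 of 60), T-type with 43.3% (26 of 60) and M-type with 42.0% (21 of 50). T-type cells had the lowest depth, and with every cell thinned to 2937786 reads the pairs with a read were 25 of 50, 27 of 60, 19 of 60 and 20 of 50 in the same order, which puts T-type below M-type. A single cell held reads of 1 to 8 of the 10 genes. J154_8 (S-type), J164_19 (T-type) and J183_1 (NR) held 8 each, and J162_16 (T-type) held 1 read of Gria3 and nothing else. J165_23 (T-type), sequenced far more deeply than J164_19, held 14 reads of the 10 genes in all. J183_1 had reads of 15 of the 26 receptor genes, the most of any cell. Its summed neuron markers were 788.4, within the range of the other cells, although Snap25 (257.5) and Nefm (253.0) were highest in it. Its microglia markers summed to 971.6, and the part of these in its receptor reads was not tested.

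**Figure D2:**
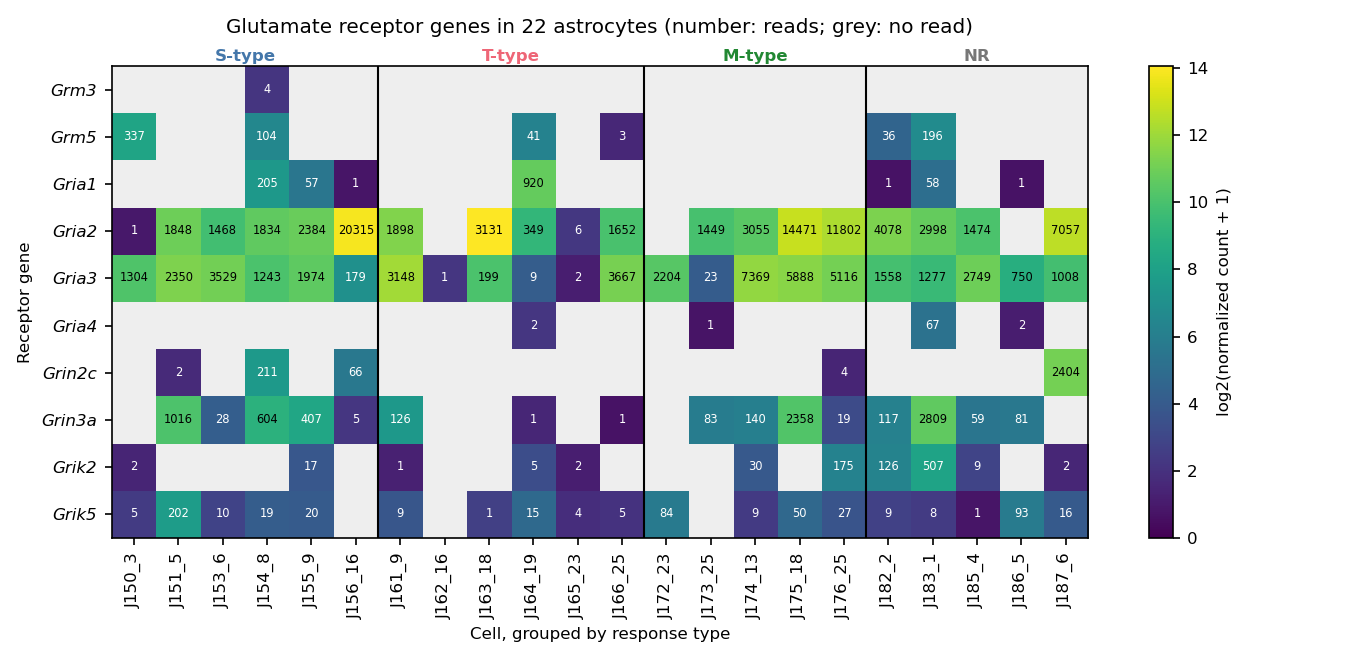
Level of the 10 genes (rows) in each of the 22 cells (columns, grouped by type), coloured by log2(normalized count + 1), with the number of reads written in each field and grey for no read. The Gria2 and Gria3 rows are filled almost throughout, while reads of Gria1, Gria4, Grin2c and Grm5 sit in a few cells.

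Of the metabotropic receptors, Grm5 was read in a minority of cells and in no M-type cell. Grm5 had normalized counts of 299.2 in J150_3 and 91.1 in J154_8 (S-type), 74.8 in J164_19 and 1.92 in J166_25 (T-type), and 111.2 in J183_1 and 21.9 in J182_2 (NR), and 0 in the other 16 cells. Every type thus had cells at 0, and the types overlap. The mean was 65.0 ± 120.3 (SD, n = 6 cells) in S-type, 26.6 ± 48.2 (n = 5) in NR and 12.8 ± 30.4 (n = 6) in T-type. In M-type, 3 reads over the 5 cells would put it at least 83.4-fold below NR, and still at a log2 ratio of -4.10 without J183_1. S-type over NR was 1.29 on the log2 scale (1.06 to 1.53) but -0.55 without J150_3, and T-type over S-type was -2.35 but -0.51 without that cell. T-type over NR was -1.06 and turned to 1.23 without J183_1. J150_3 also had the second highest sum of S phase and G2/M genes, 118840.7.

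Grm3 had 4 reads, all in J154_8, a level of 3.50. At this depth Grm3 was not detected in the other 21 cells. Some of the 14 genes of metabotropic coupling were read far more widely. Gnaq, the alpha subunit of Gq, had reads in all 22 cells with a mean level of 8856.2 ± 11766.2. Itpr1, a calcium release channel of internal stores, had reads in all 22 with 1758.5 ± 1488.1. Other genes of that list were read less widely. The phospholipase C genes Plcb3, Plcb1, Plcb4 and Plcb2 had reads in 17, 16, 13 and 1 cells, and Itpr3 in 7.

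Among the AMPA subunits, Gria2 spanned a range from at most 1 read to the highest levels of any of the 10 genes within a type. In S-type cells it had normalized counts of 0.89 (J150_3), 2003.1 (J151_5), 894.2 (J153_6), 1606.5 (J154_8), 1870.0 (J155_9) and 15075.7 (J156_16), so that 4 cells lay close together and 1 stood on either side. In T-type cells the values were 2671.6 (J161_9), 0 (J162_16), 17078.1 (J163_18), 636.6 (J164_19), 3.89 (J165_23) and 1058.1 (J166_25). Both of these highest cells were single cells far above the rest of their type. In M-type cells they were 0 (J172_23), 1014.6 (J173_25), 1432.3 (J174_13), 7507.3 (J175_18) and 5098.8 (J176_25). In NR cells they were 2475.6 (J182_2), 1700.5 (J183_1), 1060.0 (J185_4), 0 (J186_5) and 6542.1 (J187_6). Each of the 4 types therefore had at least 1 cell with no more than 1 read of Gria2 beside cells at a high level. The mean was lowest in NR with 2355.6 ± 2509.9 (SD, n = 5 cells), then 3010.6 ± 3167.0 in M-type (n = 5), 3574.7 ± 6688.1 in T-type (n = 6) and 3575.1 ± 5683.0 in S-type (n = 6), and all neighbours in this order overlap.

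The T-type mean of Gria2 rested on J163_18, the shallowest library with a size factor of 0.183 against 0.923 or more in the other 3 types. T-type over S-type was 0.00 on the log2 scale for Gria2, and it was -2.03 without J163_18 and 1.49 without J156_16. T-type over NR was 0.60, and -1.43 without J163_18. S-type over NR was also 0.60 and fell to -0.89 without J156_16.

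Gria3, on the X chromosome, was the one receptor gene with reads in every cell. In S-type cells it ran from 132.8 (J156_16) to 2547.2 (J151_5) with a median of 1353.0, and in NR from 448.6 (J186_5) to 1976.8 (J185_4) with a median of 934.5. In M-type cells it had normalized counts of 1378.8, 16.1 (J173_25), 3454.8 (J174_13), 3054.6 and 2210.2. In T-type cells it had 4431.0 (J161_9), 3.63 (J162_16), 1085.5, 16.4 (J164_19), 1.30 (J165_23) and 2348.6, so that 3 cells were far below every S-type cell and the other 3 lay within the S-type range or above it. Gria3 was highest in M-type, with a mean of 2022.9 ± 1377.7, followed by S-type with 1437.4 ± 854.7, T-type with 1314.4 ± 1786.8 and NR with 1006.0 ± 579.1. M-type over NR was 1.01 on the log2 scale (0.97 to 1.05), just past the 2-fold limit, and with 1 cell left out it ran from 0.73 (without J174_13) to 1.41. The cells of M-type and NR overlap.

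Gria1 and Gria4 were reads of few cells. Gria1 had normalized counts of 179.6 in J154_8, 44.7 in J155_9 and 0.74 in J156_16 (S-type), 1678.2 in J164_19 (T-type) and 32.9 in J183_1 with 0.61 in J182_2 and 0.60 in J186_5 (NR), and it had no read in M-type. T-type over S-type was therefore 2.90 on the log2 scale with J164_19 and -5.74 without it, and T-type over NR was 5.36 and -3.28 without it. S-type over NR was 2.46, and 0.41 without J154_8. Gria4 had 67 reads in J183_1 and 5 reads in 3 other cells.

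The balance of the 4 AMPA subunits was taken per kilobase in the 20 cells with at least 20 AMPA receptor reads, which leaves out the T-type cells J162_16 and J165_23. Gria3 was the leading subunit in 11 cells, Gria2 in 8 and Gria1 in 1, the T-type cell J164_19, where it held 81.9%. The mean share over the 20 cells was 54.8% ± 33.7 for Gria3, 40.4% ± 31.6 for Gria2, 4.7% ± 18.3 for Gria1 and 0.1% ± 0.4 for Gria4. Without the length correction the order of the first 2 turned, with 50.2% for Gria2 and 45.7% for Gria3. The Gria2 share was 45.0% ± 37.7 in M-type (n = 5), 42.1% ± 31.1 in NR (n = 5), 37.2% ± 34.7 in T-type (n = 4) and 37.1% ± 33.4 in S-type (n = 6). These means differed by far less than the spread between the cells of a type, and without J163_18 the T-type share was 19.9%. Gria3 led in 5 of 6 S-type cells, 2 of 5 NR, 2 of 5 M-type and 2 of 4 T-type cells.

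Within each type, the cells thus differed in the balance of Gria2 and Gria3 reads, and whether they are different kinds of cell was not tested. At least 100 reads of both Gria2 and Gria3 were found in 15 cells. In 3 cells, J150_3 (S-type), J172_23 (M-type) and J186_5 (NR), Gria3 had 1304, 2204 and 750 reads and Gria2 had 1, 0 and 0. At the other end Gria2 held 98.3% in J156_16 (S-type), 96.9% in J173_25 (M-type) and 89.1% in J163_18 (T-type). The 3 cells with at most 1 read of Gria2 named above had 16063660, 20652035 and 18835038 reads in all. They had 9768, 9272 and 10545 genes with a read, of which the first 2 were the lowest gene numbers of their types. The part of this in their Gria2 reads was not tested. The enzyme that edits the Q codon of Gria2 shown above, Adarb1, had a read in 16 cells: 6 of 6 S-type, 4 of 5 M-type, 3 of 5 NR and 3 of 6 T-type. Of the 17 cells with at least 100 reads of Gria2, 12 had at least 5 reads of Adarb1 and 5 had none, 3 of them T-type (J163_18, J164_19 and J166_25) and 2 NR (J182_2 and J183_1). J163_18 and J164_19 had the lowest totals of all cells, 2937786 and 6568630 reads, and the part of depth in this was not tested.

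**Figure D3:**
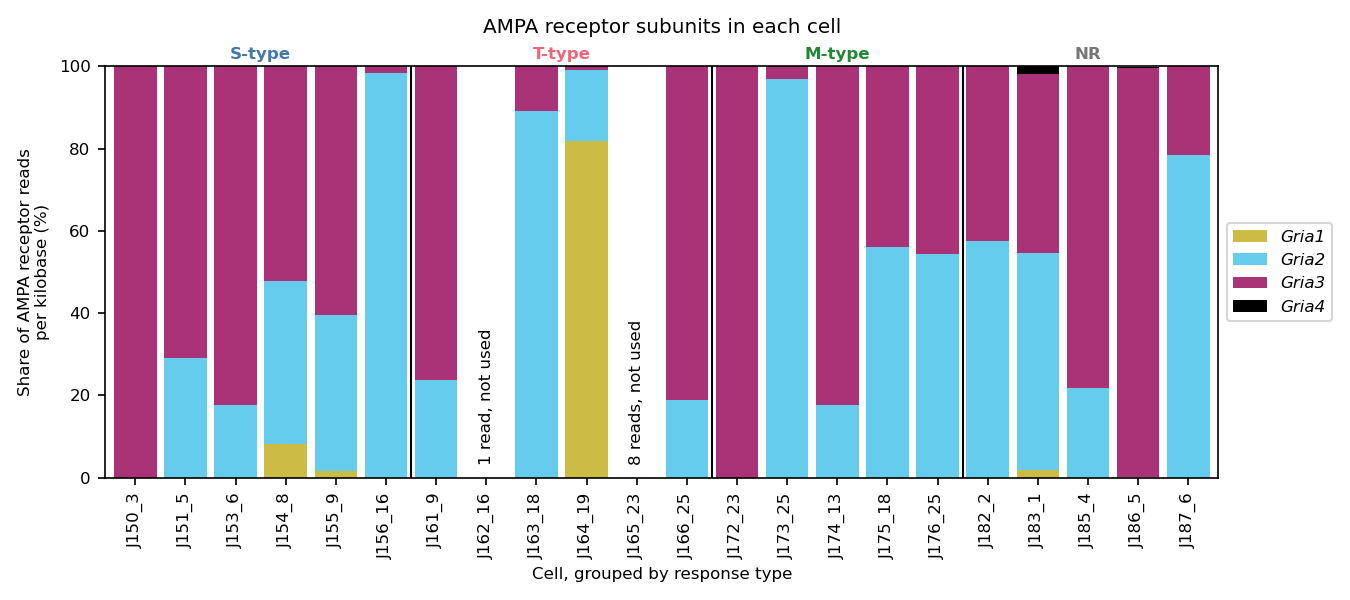
Share of each AMPA receptor subunit in the AMPA receptor reads per kilobase (vertical axis, percent) in each cell (horizontal axis, grouped by type). Gria2 and Gria3 make up nearly all of each bar except in J164_19, where Gria1 held 81.9%, and both bars full of Gria3 and bars nearly full of Gria2 occur among the cells.

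Of the NMDA receptor subunits, Grin3a was the more widely read, and its level in T-type was below that of each other type. GRIN3A lowers the calcium passage of NMDA receptors that take it up. Grin3a in S-type cells had normalized counts of 0 (J150_3), 1101.2 (J151_5), 17.1 (J153_6), 529.1 (J154_8), 319.2 (J155_9) and 3.71 (J156_16). In T-type cells it had 177.4 in J161_9, 1.82 in J164_19, 0.64 in J166_25 and 0 in the other 3. In M-type cells it had 0, 58.1, 65.6, 1223.3 (J175_18) and 8.21, and in NR 71.0, 1593.3 (J183_1), 42.4, 48.4 and 0 (J187_6). The T-type values lay inside the range of each of the other types, so the types overlap. The means were 351.0 ± 694.9 in NR, 328.4 ± 435.4 in S-type, 271.1 ± 533.1 in M-type and 29.97 ± 72.2 in T-type. T-type over S-type was -3.45 on the log2 scale (-3.72 to -3.20), and stayed between -9.38 and -2.54 with 1 cell left out. T-type over NR was -3.55, but only -0.43 without J183_1. Against M-type the difference rested on J175_18, without which the M-type mean was 32.99. The T-type mean itself came to 98.6% from J161_9.

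Grin2c was read mainly in 1 cell. The NR cell J187_6 held 2404 reads of Grin2c, a normalized count of 2228.6, while the S-type cells J154_8 and J156_16 had 184.8 and 49.0, and J151_5 (S-type) and J176_25 (M-type) had 2.17 and 1.73. J187_6 also had the highest summed level of astrocyte markers in NR, 127465.3. No T-type cell had a read, which puts T-type at least 63.2-fold below S-type with the floor of 3 reads, a log2 ratio of -5.98 that was -4.04 without J154_8. S-type over NR was -3.50 on the log2 scale and 6.41 without J187_6. Grin1, the subunit that every NMDA receptor needs, had 33 reads in J151_5 (S-type) and no read in the other 21 cells. Grin3a or Grin2c was read in 17 cells, so that 16 of the 17 had no read of Grin1. J151_5 was also the cell with the highest summed level of neuron markers, 31630.4, nearly all of it Stmn2 (31627.1), and of S phase and G2/M genes, 151439.3, and their part in its Grin1 reads was not tested.

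Kainate receptor subunits were read at low levels. Grik5 had a read in 19 cells, and its normalized counts ran from 0.72 (J185_4) to 55.6 (J186_5) in NR, 0 (J173_25) to 52.6 (J172_23) in M-type, 0 (J162_16) to 27.4 (J164_19) in T-type and 0 (J156_16) to 219.0 (J151_5) in S-type. The medians of 5.46, 11.7, 4.33 and 10.9 in that order lay closer together than the means of 16.2 ± 22.6, 18.9 ± 21.3, 8.55 ± 10.2 and 43.6 ± 86.1. T-type over S-type was -2.35 on the log2 scale and 0.00 without J151_5, and S-type over NR was 1.43 and -0.92 without it.

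Grik2 was highest in NR. In NR cells it had normalized counts of 76.5 (J182_2), 287.6 (J183_1), 6.47 (J185_4), 0 (J186_5) and 1.85 (J187_6), and in M-type 75.6 (J176_25), 14.1 (J174_13) and 0 in the other 3. In S-type cells it had 13.3 (J155_9), 1.78 (J150_3) and 0 in the other 4, and in T-type 9.12 (J164_19), 1.41, 1.30 and 0 in the other 3. The 2 highest NR cells lay above every S-type and T-type cell, and the remaining NR cells lay within their ranges. S-type over NR was -4.89 on the log2 scale (-5.63 to -4.23) and T-type over NR -5.24 (-6.46 to -4.25), and without J183_1 the ratios were -3.07 and -3.43. M-type over NR was -2.05 and only -0.24 without J183_1.

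Of the 19 cells with a read of Grik5, 11 also had a read of Grik1, Grik2 or Grik3, in each case of Grik2, and 8 had none. The 11 were 4 NR, 3 T-type, 2 M-type and 2 S-type cells. Neto2, an auxiliary subunit of kainate receptors, was read in all 22 cells with a mean level of 971.6 per kilobase of exon, above that of Gria2.

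**Figure D4:**
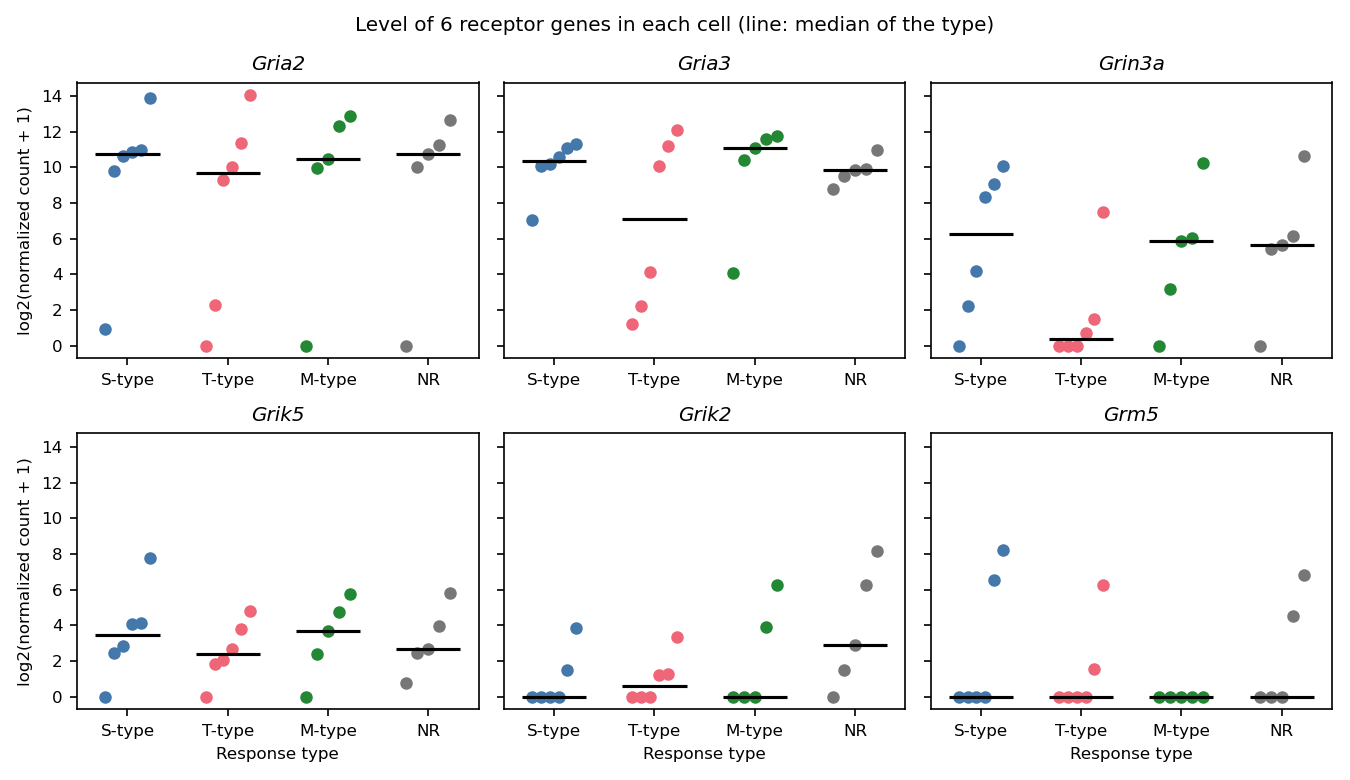
Level of 6 receptor genes in each cell, as log2(normalized count + 1) on the vertical axis, by response type on the horizontal axis; points are cells and lines the median of the type. For each gene the points of the 4 types overlap, and T-type cells lie at or near 0 for Grin3a in 5 of 6 cells.

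Set against each other by type, the 10 genes gave no direction that all cells share. With T-type over S-type, 8 of the 10 had a ratio, 1 was at least 2-fold higher (Gria1) and 4 at least 2-fold lower (Grm5, Grin2c, Grin3a and Grik5), beside 58.3% of all 12504 genes with a ratio that differed at least 2-fold in either direction (25.8% higher and 32.6% lower). Their median log2 ratio was -1.35 beside -0.09 over all genes. With T-type over NR, 1 of 9 was higher (Gria1) and 5 were lower (Grm5, Gria4, Grin2c, Grin3a and Grik2), beside 61.3% of all genes in either direction (28.4% higher and 32.8% lower), with a median of -1.06 beside -0.07.

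With S-type over NR, 3 of 10 were higher (Grm5, Gria1 and Grik5) and 3 lower (Gria4, Grin2c and Grik2), beside 47.6% of all genes in either direction (25.1% higher and 22.5% lower), with a median of 0.54 beside 0.03. With M-type over NR, 1 of 9 was higher (Gria3) and 5 were lower (Grm5, Gria1, Gria4, Grin2c and Grik2), beside 47.9% of all genes in either direction (19.8% higher and 28.1% lower), with a median of -2.05 beside -0.20. The last 3 comparisons share the NR cells. The 2 genes under the limit of 5 cells, Grm3 and Gria4, are counted with the 10 but not among all genes. In none of the 4 comparisons did the cells of 2 types stand apart for any of the 10 genes, beside 0.771%, 0.991%, 0.409% and 0.598% of all genes. Other genes also differed in the mean level of the types. All 8 microglia markers with a ratio were at least 2-fold higher in T-type than S-type, and all 9 were lower in S-type and in M-type than NR. All 16 S phase and G2/M genes were higher in S-type than NR. These means rested on some of the cells. The summed microglia markers were 0.0 in the T-type cells J163_18 and J165_23. The summed S phase and G2/M genes ran from 1598.5 (J156_16) to 151439.3 (J151_5) in S-type, against 2372.0 to 6133.3 in NR. The part of these marker genes in the receptor values was not tested. Medians over the 10 moved widely with 1 cell: without J183_1 the M-type median was -0.02 and 3 genes rather than 6 were past 2-fold, without J151_5 the S-type median was -0.32, and without J164_19 the T-type medians were -3.20 and -3.30.

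**Figure D5:**
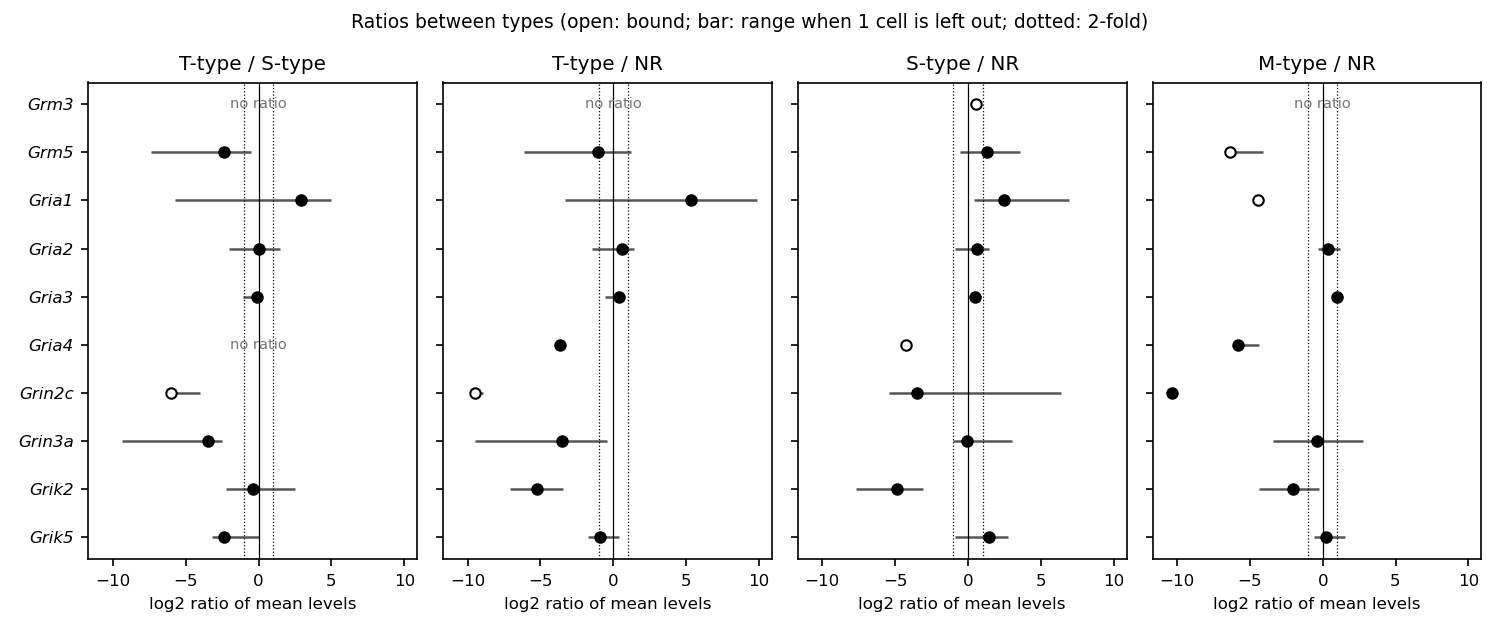
Log2 ratio of the mean levels of 2 types (horizontal axis) for each of the 10 genes (vertical axis) in 4 comparisons; open points are bounds against a type without a read, bars span the values found when 1 cell is left out, and dotted lines mark 2-fold. Of the 36 bars, 17 cross 0: 4 for T-type over S-type, 5 for T-type over NR, 5 for S-type over NR and 3 for M-type over NR, with Gria2 in each of the 4.

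Genes that work with these receptors were counted in the same 4 comparisons, to be read beside the shares of all genes at least 2-fold apart, 58.3% for T-type over S-type, 61.3% for T-type over NR, 47.6% for S-type over NR and 47.9% for M-type over NR. Of 16 scaffold and trafficking genes, 2 were higher and 7 lower of 12 with a ratio for T-type over S-type, 0 and 6 of 13 for T-type over NR, 3 and 4 of 13 for S-type over NR, and 3 and 6 of 14 for M-type over NR. Homer1, which links GRM5 to internal calcium stores, had 32 reads in T-type and 2115 in S-type. Its log2 ratio of -6.21 was at most -5.92 with 1 cell left out. Dlg1 and Nsf, the genes of this list at a higher mean level, had ratios of -1.20 and 0.76 there. That of Nsf was -0.44 without J161_9, so Homer1 does not stand for the list. Of 14 auxiliary subunit genes, 4 were higher and 2 lower of 9 in the first comparison, and 5 and 3 of 11, 3 and 6 of 12, and 4 and 6 of 11 in the others in that order. Shisa6, an AMPA receptor partner, was at a mean level of 345.9 in S-type, 320.9 in M-type and 56.1 in NR, and S-type over NR was 2.62 on the log2 scale and at least 2.01 with 1 cell left out. Its T-type mean of 292.0 came to 98.7% from J163_18, and T-type over NR was 2.38 with that cell and -3.60 without it. Neto2, at a higher mean level than Shisa6, had a log2 ratio of -0.13 for S-type over NR. That of Cnih3 was -4.46, with 5 reads in S-type and 100 in NR, so Shisa6 does not stand for the list.

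Of 14 genes of metabotropic coupling, in the same order of comparisons, 4 were higher and 5 lower of 13, 4 and 4 of 12, 2 and 3 of 13, and 2 and 4 of 13. Of the 16 other glutamate receptor genes, 2 were higher and 5 lower of 9, 2 and 5 of 8, 4 and 5 of 11, and 1 and 6 of 8. Of 6 genes of glutamate uptake and D-serine, 0 were higher and 1 lower of 5, 2 and 3 of 6, 1 and 2 of 6, and 0 and 3 of 6. Slc1a2, the glutamate transporter GLT-1, was the 1 gene of 5 at least 2-fold lower in T-type than S-type, with 365 reads against 25741. Its log2 ratio of -3.60 ran from -8.53 without J163_18 to -1.90 without J154_8. Slc1a3 and Glul, both at a higher mean level over the cells, had ratios of 0.27 and 0.78 there. Each of these ratios ran across 0 with 1 cell left out.

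By the course over the 22 cells, the genes most like Gria3 among 9455 with a read in at least 15 cells were Zfml (Pearson r 0.888), Mettl23 (0.830) and Plce1 (0.823). For Gria2 they were Desi2 (0.903), Dync2h1 (0.885) and Pacsin3 (0.864), and for Grik5 Cap2 (0.740), Abhd8 (0.702) and B230217C12Rik (0.698). These values, on log2(normalized count + 1), are the highest among 9455 genes over 22 cells. They describe the cells and share their libraries and depths. By Spearman's rho the values were lower, except for B230217C12Rik. In the same order rho was 0.763, 0.551 and 0.474 for Gria3, 0.754, 0.673 and 0.489 for Gria2, and 0.723, 0.656 and 0.706 for Grik5. Between the receptor genes themselves, r was 0.416 for Gria2 with Gria3 and 0.398 and 0.406 for Grin3a with the same 2 genes.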

How the data were processed

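RNA of single astrocytes was amplified by the authors in 2 rounds, made into stranded TruSeq libraries and sequenced on a NextSeq 500. The authors trimmed the reads, aligned them with STAR to GRCm38 and deposited raw exonic counts from VERSE for 22 cells; the submitters' processing notes also name HTSeq and mm10. Versions and the use of strand are not given in the sources used here. No molecular identifiers were used, so intervals cover counting error only. Total counts per cell were 2937786 to 22131076.

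Size factors were medians of ratios over the 3670 genes read in every cell (0.183 to 2.31), computed in Python 3.11.15 (NumPy 2.4.6; pandas 2.3.3). A type with 0 reads was set to 3 reads over its summed size factors, a fold against it is a bound, and no fold is given where both types had at most 3 reads or the bound gave no direction. Comparisons over all genes were limited to 12719 genes, each read in 5 cells or more. Intervals were exact at 95% (SciPy 1.17.1). Since cells are not tied to animals, no test between types was run and no SE is given; SD is over cells. The titles of the cells run in a separate block of numbers for each type, and what these numbers mark is not stated, so a processing batch and the type cannot be told apart. Exon lengths and sequences came from GENCODE vM21, on the build of the alignment; exons of Gria2, Gria3, Gria4 and Grin2c overlap only small non-coding genes by 29, 20, 19 and 91 bases.

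The 10 genes and the gene lists were chosen with earlier results of these data known. Named were all 10 genes, at most 3 genes of highest level per list with the subunits the receptors need, and the 3 genes of highest r for the 3 receptor genes read in most cells. Itpr1, Itpr3, the phospholipase C genes and single marker genes were named after their values were seen. Alternatives were TMM factors (edgeR 4.0.16, R 4.3.3), CPM, thinning, a pseudocount of 1, medians over cells, filters, and leaving out cells. The steps were tested on simulated data. Values of 1 receptor gene of the lists are not reported here.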

Additional observations from a re-analysis of the deposited data

Results flagged for a closer look

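In 41 sets of 5 or 6 cells of 1 type, the highest or lowest cell was compared with its nearest neighbour by Dixon's ratio, and 17 sets had a cell that stood apart, where chance flags about 1 in 20 for normally distributed values. These are skewed counts with many zeros, and a set in which all but 1 cell have no read is flagged by construction, so the number cannot be set against that rate. In S-type these were the summed CPM of the 10 genes in J156_16 (1269.1), Grm3 in J154_8 (3.5), Gria2 as the lowest cell in J150_3 (0.89) and Gria3 as the lowest cell in J156_16 (132.84). In T-type they were the summed CPM in J163_18 (1133.8), Grm5, Gria1 and Gria4 in J164_19 (74.79, 1678.2 and 3.65) and Grin3a in J161_9 (177.35). In M-type they were Gria2 and Gria3 as the lowest cells in J172_23 (0.0) and J173_25 (16.1), Gria4 in J173_25 (0.7) and Grin2c in J176_25 (1.73). In NR they were Gria1 and Gria4 in J183_1 (32.9 and 38.0), Gria2 as the lowest cell in J186_5 (0.0) and Grin2c in J187_6 (2228.61).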

How the results depend on the processing

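Levels and AMPA shares by type moved by less than 1 SD over the cells of the type in every setting run. With 1 cell left out a mean cannot move by more than that, so this part of the outcome was fixed in advance. That SD is often as large as the mean and says little about stability. The T-type mean of Gria1 went from 279.7 to 0.0 without J164_19, and the NR mean of Grin2c from 445.7 to 0.0 without J187_6. With 1 cell left out, the T-type mean of Gria2 ran from 874.0 to 4289.6. With CPM the median of T-type over S-type was -0.67 and that of S-type over NR 0.60; with thinning they were -2.52 and 0.46, and that of M-type over NR was -1.55; TMM factors gave 0.45 for S-type over NR. With the median over cells plus 1 as the level, 3 genes rather than 6 were past 2-fold for T-type over NR and for S-type over NR (median 0.02) and 2 for M-type over NR (median 0.00). With only the genes read in at least 5 cells the M-type median was -1.21. Counting only 5 or more reads, 26.7% of the T-type pairs had the gene. Without the 2 T-type cells of lowest depth, an alternative chosen after seeing the data, the T-type medians were -3.06 against S-type and -3.22 against NR. With 1 cell left out, the medians ran from -3.20 to -0.17 (T-type over S-type), -3.30 to -0.07 (T-type over NR), -0.32 to 0.73 (S-type over NR) and -4.01 to -0.02 (M-type over NR), and the number past 2-fold in M-type over NR ran from 3 to 6. Single ratios reversed for Gria1: T-type over S-type was -0.46 with medians and -5.68 without the shallow pair, and with 1 cell left out it ran from -5.74 (without J164_19) to 4.94; T-type over NR was -0.68 and -3.22, and ran from -3.28 (without J164_19) to 9.86; S-type over NR was -0.22 with medians. Grin2c in S-type over NR turned to 1.06 with medians, and with 1 cell left out ran from -5.45 to 6.41 (without J187_6). With 1 cell left out, Grm5 ran from -6.11 to 1.23 (without J183_1) in T-type over NR and from -0.55 (without J150_3) to 3.57 in S-type over NR, and Grik5 from -0.92 (without J151_5) to 2.77 in S-type over NR. Where no single cell is named, the cause was not tested.

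No paired analysis was possible because the values come from no test and the labels give no pairing of cells across types. The limits are the 22 cells, the missing link from cells to animals, and a depth at which a gene without a read is not detected rather than absent. Reads of 1 to 5 in a cell say little about its level after 2 rounds of amplification.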

Other observations

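The 10 genes had different levels in the 3 cells with at least 100 reads of Gria3 and at most 1 of Gria2. J172_23 (M-type), with 2204 reads of Gria3, had 84 reads of Grik5, the highest Grik5 level of its type, and no read of the other 8 genes. J186_5 (NR), with 750 reads of Gria3, had 93 reads of Grik5, also the highest Grik5 level of its type, and 81 of Grin3a. J150_3 (S-type), with 1304 reads of Gria3, had 5 reads of Grik5 and the highest level of Grm5 of all cells. These cells were chosen after their values were seen.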
